A study of Rattus norvegicus with 6 samples.

Results

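Alveolar macrophages, the resident phagocytes of the airspace, were compared between lungs of rats treated with bleomycin (BLM) and lungs of control rats. A cell was taken as an alveolar macrophage when it held at least 1 transcript of at least 3 of 6 genes (Mrc1, Plet1, Krt79, Axl, Naaa and Pparg), none of the complement genes C1qa, C1qb and C1qc, fewer than 3 transcripts of Spp1 and fewer than 3 of 6 cycling genes (Top2a, Mki67, Cenpf, Nusap1, Cdk1 and Ube2c). Of 25547 cells 6003 met these limits, 595, 1184 and 660 in BLM-treated rats 1 to 3 and 1195, 677 and 1692 in control rats 1 to 3. The limits use measured values, so the level of the genes in them is given as a description only.

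Alveolar macrophages take up inhaled particles, dying cells and spent surfactant, and clear its lipid through lysosomes, lipid storage and export of cholesterol. In a healthy lung most of them renew themselves in place under the control of the nuclear receptor Pparg and of signals from the alveolar epithelium. After injury, monocytes can enter the airspace and take on the same identity, and in fibrotic lungs macrophages with high levels of Trem2, Spp1, Fn1 and Apoe are known to gather near scars.

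All animals were young adult Sprague Dawley rats, whose sex was not used here. A single dose of BLM, which damages epithelial cells and is followed by fibrosis, was given into the trachea at 5 mg/kg to 3 rats, and 3 control rats received saline. Lungs were perfused and digested on day 28, and single cells were sequenced with the BD Rhapsody system, which tags captured mRNA with unique molecular identifiers (UMIs). The model holds a single time point and a single dose, and the cells were taken from small pieces of digested lung, not from lavage.

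Of all cells 6922 held at least 3 of the 6 markers, and 919 of them were left out by the other limits. Complement transcripts removed 273 cells of BLM-treated rats and 36 of control rats, 8.98% and 0.927% of the cells with 3 markers. Spp1, which encodes the matrix protein osteopontin, removed 300 cells of BLM-treated rats and 22 of control rats, and cycling genes removed 137 and 263. More cells of BLM-treated rats than of control rats were thus removed as C1q-positive or Spp1-positive. Just inside the limits lay 559 cells with exactly 3 markers (median 1257 UMIs) and 56 with 2 UMIs of Spp1, and just outside lay 686 cells with 2 markers (median 1336.5 UMIs), 22 with 3 UMIs of Spp1 and 77 with a single complement UMI.

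The markers behind the name were present in every rat. Mrc1, the mannose receptor, stood at 2142, 2134 and 2242 counts scaled to a common library size (CPM, from the UMIs summed over the macrophages of a rat) in BLM-treated rats, and at 1881, 1654 and 1638 CPM in control rats. Pparg stood at 327, 331 and 375 CPM in BLM-treated rats, and at 275, 213 and 306 CPM in control rats. Among markers that the limits do not use, Fabp4, a fatty acid binding protein of alveolar macrophages, was present in every rat but differed between groups. It was found in 69.2%, 69.7% and 57.9% of the macrophages of BLM-treated rats and 36.7%, 25.4% and 37.8% of those of control rats. Marco and Car4, other markers of these cells in mice and humans, stood at 4.13 CPM or less and at 3.36 CPM or less, so that they were near 0 in both groups. Markers of interstitial macrophages that are not in the limits, Cd163, Ms4a7 and Cx3cr1, stood at 6.25 CPM or less in every rat.

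The macrophages of BLM-treated rats 1 to 3 held a median of 5113, 4169.5 and 4141.5 UMIs per cell (2958681, 4845566 and 2740851 UMIs in all), and those of control rats 1 to 3 held 3158, 1757 and 4077.5 (4067016, 1453150 and 7283335 in all). Some libraries stood apart by RNA of other cells. In BLM-treated rat 2 the hemoglobin transcript Hba-a2 reached 2817 CPM, against 25.5 and 83.6 CPM in the other BLM-treated rats and 14.7, 17.5 and 139 CPM in control rats. In control rat 2, the shallowest library, the club cell transcript Scgb1a1 was found in 81.1% of the macrophages, against 9.04% to 25.7% in the other 5 rats. Of the cell labels, 314 occurred in more than 1 library, and 154 macrophages carried such a label. No doublet caller was run, and the largest cell held 9555 UMIs.

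Alveolar macrophages made up a smaller share of the cells of BLM-treated lungs. They were 16.3%, 15.8% and 17.0% of the cells of BLM-treated rats 1 to 3, against 35.4%, 26.4% and 36.8% of the cells of control rats 1 to 3. The groups did not overlap, and the difference of the means was −16.5 percentage points (two-sided exact permutation test over rats, p = 0.1, the smallest p that 3 rats against 3 can give). It is a share of the recovered cells and does not count macrophages per lung. The share also describes the limits that chose the cells. Those on C1q, Spp1 and cycling genes left out 19.8% of the cells with 3 markers in BLM-treated rats and 8.19% in control rats.

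Within the macrophages, 1245 of 9566 tested genes differed between the groups (adjusted p below 0.05, edgeR's quasi-likelihood test on UMIs summed per rat). Of these, 761 genes, 7.96% of those tested, were higher in BLM-treated rats, and 484, 5.06%, were lower. These 2 shares are the background for the counts of each gene list below. The larger changes lay on the higher side, where 211 genes rose by at least 2 on the log2 scale, while 62 fell by as much. The 3 rats of a group all lay on one side of the 3 rats of the other for 749 of the 761 and 482 of the 484, against 17.1% and 15.1% of all tested genes in each direction. The counts depend on single rats. Without BLM-treated rat 1 there were 637 higher and 316 lower, without BLM-treated rat 2 there were 408 and 222, and without control rat 1 there were 444 and 224.

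The genes that rose most ranged from transcripts found in many cells to transcripts held by a few. Among those found in many, the lectin receptor Clec10a reached 386, 542 and 457 CPM in BLM-treated rats 1 to 3, against 15.9, 10.7 and 13 CPM in control rats 1 to 3, so that the groups lay far apart. This is a change of 5.09 in log2 units with a standard error of 0.20 (adjusted p = 4.7e-06). Trem2, a lipid-sensing receptor of macrophages, stood at 221, 225 and 210 CPM in BLM-treated rats, against 26.2, 11.4 and 17.9 CPM in control rats, with little spread among the treated rats (log2 fold change 3.49, standard error 0.21, adjusted p = 2.57e-05). Emp1, an epithelial membrane protein, stood at 163, 210 and 177 CPM in BLM-treated rats, against 5.73, 6.71 and 12.5 CPM in control rats (log2 fold change 4.33, standard error 0.25). Hopx, a homeodomain protein known from alveolar type 1 cells, stood at 218, 316 and 207 CPM in BLM-treated rats, against 22.2, 24.2 and 25.9 CPM in control rats (log2 fold change 3.35, standard error 0.19). Lymphocytes of the same lungs also held both, with overlap between groups (unscaled CPM of their UMIs). Hopx stood there at 375, 173 and 236 CPM in BLM-treated rats and 36.2, 65.2 and 235 CPM in control rats. For Emp1 the lymphocyte levels were 152, 69.7 and 52.5 CPM in BLM-treated rats and 65.8, 32.6 and 73.8 CPM in control rats.

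Mfge8, a bridge between dying cells and the phagocytes that engulf them, stood at 223, 150 and 138 CPM in BLM-treated rats, against 25.4, 15.4 and 18.8 CPM in control rats (log2 fold change 3.05). Slamf9, a receptor of the SLAM family, stood at 86.5, 100 and 103 CPM in BLM-treated rats, against 7.97, 6.71 and 13 CPM in control rats (log2 fold change 3.26). The transcription factors Egr3 and Nr4a3, which many cells switch on within minutes of a stimulus, rose by 3.42 and 3.33 on the log2 scale, with no overlap between groups. Both were also higher in lymphocytes of every BLM-treated rat than in those of every control rat (CPM of lymphocyte UMIs, unscaled). Nr4a3 stood there at 864, 954 and 998 CPM in BLM-treated rats and 539, 399 and 291 CPM in control rats. Its level in macrophages was lower, at 0.0928, 0.110 and 0.105 of the lymphocyte level in BLM-treated rats (unscaled CPM). Egr3 stood there at 44.4, 82.9 and 99.8 CPM in BLM-treated rats and 19.7, 24.4 and 17.4 CPM in control rats. Ccl2, the chemokine that draws monocytes, stood at 148, 164 and 58.8 CPM in BLM-treated rats, against 19.7, 5.37 and 8.31 CPM in control rats (log2 fold change 3.40, standard error 0.46, and 4.05 without control rat 1, the highest control). Cdca2, which binds protein phosphatase 1 on chromosomes, rose by 3.20 among cells from which the limits had removed cycling ones.

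**Figure D1:**
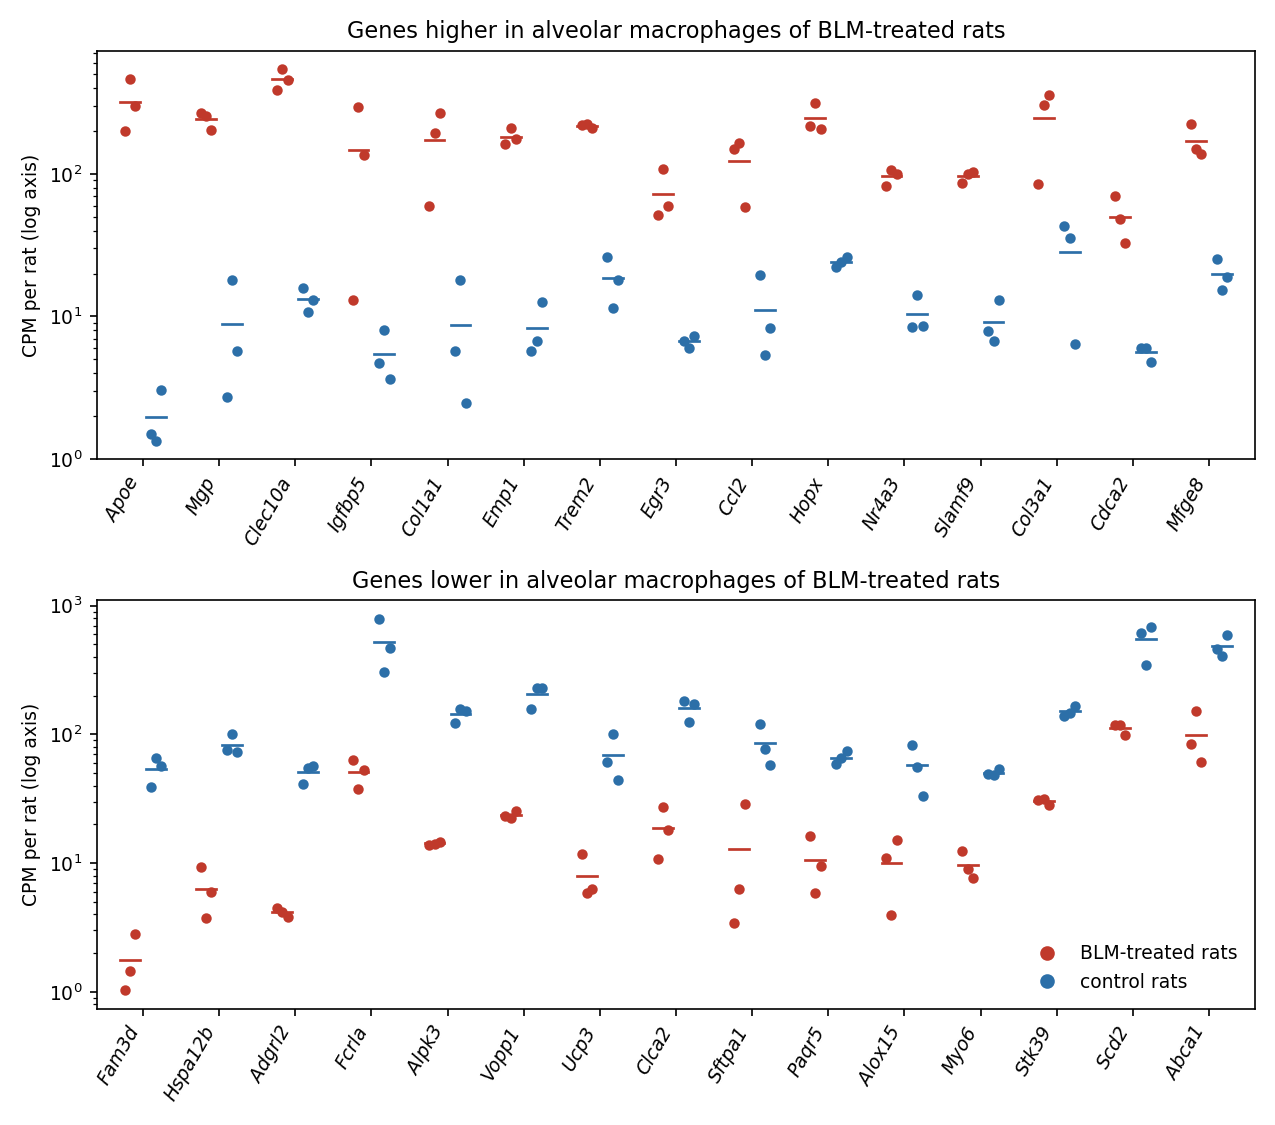
CPM (log axis) of the 15 genes higher and the 15 genes lower in alveolar macrophages of BLM-treated rats with the largest log2 fold changes, among genes past the test with no overlap between groups and a mean of at least 50 CPM in the higher group. Each point is 1 rat (3 BLM-treated, red, and 3 control, blue) and each line the group mean, and the groups are apart for each of the 30 genes, by definition of the choice.

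The remaining genes of the top 15 were carried by few cells. Apoe, the lipid carrier of lipoproteins, stood at 200, 465 and 298 CPM in BLM-treated rats, against 1.49, 1.34 and 3.06 CPM in control rats, where it rested on 6, 2 and 21 UMIs. Its change of 7.12 in log2 units had a standard error of 0.42 (adjusted p = 1.95e-05). It was the largest of the 15 higher genes chosen by size, and it ran from 6.73 without BLM-treated rat 2 to 7.75 without control rat 3. Between 96.5% and 100% of the Apoe transcripts of a BLM-treated rat lay in the 5% of macrophages with the most of them, and a single cell held up to 359. For Trem2 that portion was 25.1% to 28.1%, for Clec10a 37.7% to 46.0% and for Ccl2 58.4% to 80.4%. A gene found in fewer than 5% of the cells reaches 100% by construction, so the largest number in a single cell is given beside it.

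Mgp, matrix Gla protein, and the collagen genes Col1a1 and Col3a1, all known from fibroblasts and mural cells, had the same few-cell pattern. Mgp stood at 267, 256 and 203 CPM in BLM-treated rats, against 2.74, 18.1 and 5.68 CPM in control rats (log2 fold change 5.16, from 4.68 without control rat 1 to 5.74 without control rat 2). Col1a1 stood at 59.3, 192 and 266 CPM in BLM-treated rats, against 5.73, 18.1 and 2.48 CPM in control rats (log2 fold change 4.80, standard error 0.69, from 4.12 without control rat 3 to 5.50 without control rat 2, and 2.74 with each cell thinned to 1000 UMIs). Igfbp5, a binding protein of insulin-like growth factors, was far from even among treated rats, at 13.1, 296 and 135 CPM in BLM-treated rats 1 to 3, against 4.73, 8.06 and 3.64 CPM in control rats. Its change of 4.99 in log2 units had a standard error of 0.98 (adjusted p = 0.01). It was 3.94 without BLM-treated rat 2 and 5.50 without BLM-treated rat 1, and at 4.69 it no longer passed without control rat 3.

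Col3a1 stood at 84.4, 304 and 355 CPM in BLM-treated rats, against 42.9, 35.6 and 6.41 CPM in control rats (log2 fold change 3.24, from 2.64 without control rat 3 to 3.91 without control rat 1, and 1.81 with thinned cells). In BLM-treated rats 91.3% to 100% of the UMIs of each of these 4 genes lay in the top 5% of cells, and single cells held up to 334 UMIs of Mgp, 362 of Col1a1, 272 of Col3a1 and 502 of Igfbp5. Measured over the list of 10 fibroblast and mural genes, the summed level was 431, 796 and 875 CPM in BLM-treated rats and 61.3, 122 and 24.0 CPM in control rats, and their part in these results was not tested.

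**Figure D2:**
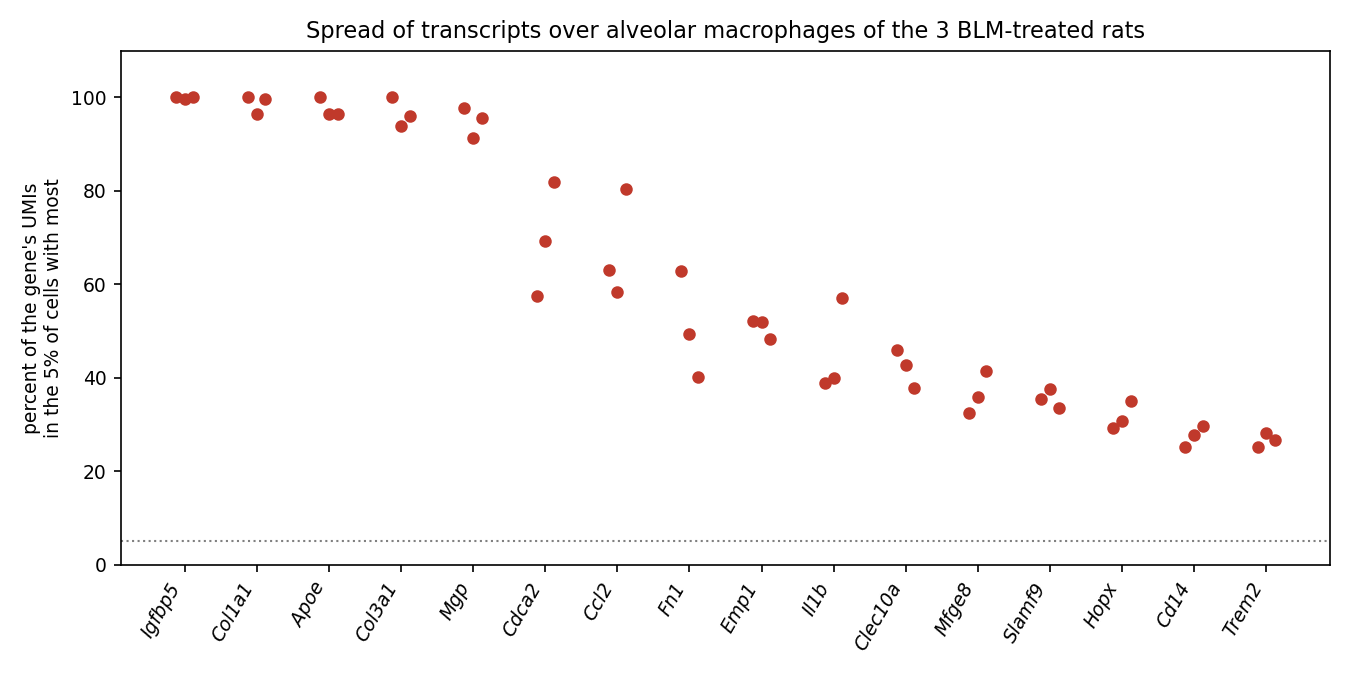
Percentage of a gene's UMIs that lies in the 5% of alveolar macrophages holding most of them, for genes higher in BLM-treated rats. Each point is 1 BLM-treated rat and the dotted line marks an even spread at 5%, with Igfbp5, Col1a1, Apoe, Col3a1 and Mgp above 90% in every rat and Trem2, Cd14 and Hopx at 35.0% or below.

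The genes that fell most were a mixed group, in part known from alveolar macrophages. Fam3d, a secreted cytokine-like protein, stood at 1.03, 1.46 and 2.80 CPM in BLM-treated rats, against 39.1, 65.8 and 57.3 CPM in control rats (log2 fold change −4.93, standard error 0.33). Alpk3, an alpha-kinase, stood at 13.8, 14.2 and 14.7 CPM in BLM-treated rats, against 123, 158 and 151 CPM in control rats, and relative to its mean it had the smallest spread among treated rats of the 15 genes (log2 fold change −3.33, standard error 0.14, adjusted p = 6.64e-06). Fcrla, an Fc receptor-like protein, stood at 63.0, 37.9 and 53.2 CPM in BLM-treated rats, against 793, 305 and 469 CPM in control rats (log2 fold change −3.36, standard error 0.34).

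The others lie in several systems. Hspa12b, an Hsp70 relative, the adhesion receptor Adgrl2 and the chloride channel regulator Clca2 fell by 3.76, 3.60 and 3.05 on the log2 scale. Vopp1 stood at 23.4, 22.3 and 25.2 CPM in BLM-treated rats, against 157, 228 and 230 CPM in control rats (log2 fold change −3.12). The mitochondrial uncoupling protein Ucp3, the membrane progestin receptor Paqr5, the unconventional myosin Myo6 and the kinase Stk39 fell by 3.09, 2.72, 2.39 and 2.32. Alox15, a lipoxygenase that makes lipid mediators of resolution, stood at 11, 3.96 and 15 CPM in BLM-treated rats, against 83.0, 55.7 and 33.4 CPM in control rats (log2 fold change −2.59). Sftpa1, a surfactant protein made by alveolar type 2 cells, stood at 3.45, 6.25 and 29.0 CPM in BLM-treated rats, against 120, 77.2 and 58.3 CPM in control rats. Its log2 fold change of −2.79 was −4.04 without BLM-treated rat 3, and it did not pass without BLM-treated rat 2 or without control rat 1 (−2.40 and −2.43).

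Genes of cholesterol export and fatty acid desaturation were lower. Abca1, which exports cholesterol from macrophages, stood at 84.4, 151 and 61.6 CPM in BLM-treated rats, against 459, 404 and 588 CPM in control rats (log2 fold change −2.28, standard error 0.30, adjusted p = 0.0014). Scd2, a stearoyl-CoA desaturase, stood at 119, 118 and 99.4 CPM in BLM-treated rats, against 612, 346 and 686 CPM in control rats (log2 fold change −2.29, standard error 0.24). Srebf1, the regulator of fatty acid synthesis, stood at 26.2, 26.7 and 25.5 CPM in BLM-treated rats, against 61.0, 50.4 and 65.6 CPM in control rats (log2 fold change −1.19). Abcg1, another cholesterol exporter, and the nuclear receptor gene Nr1h3, named after its values were seen, had log2 fold changes of −0.54 and −0.58. Abcg1 lost its call without any one of the 6 rats, at −0.64 to −0.43.

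Some genes of cholesterol synthesis and its control were higher. Insig1, a sterol sensor, stood at 295, 303 and 240 CPM in BLM-treated rats, against 129, 53.7 and 98.1 CPM in control rats (log2 fold change 1.55, standard error 0.25, adjusted p = 0.00422). The enzyme genes Hmgcs1 and Cyp51 rose by 1.38 and 0.81, but their calls were lost without several single rats. Over the list of cholesterol synthesis, 4 of 24 tested genes were higher and 1 was lower, with a median log2 fold change of 0.22, against a median of −0.003 over all tested genes, so that most members did not pass.

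Over the list of surfactant and lipid handling 5 of 38 tested genes were higher and 9 lower, with a median of −0.11. The shares over all tested genes were 7.96% higher and 5.06% lower. The lipoprotein receptor gene Lrp1 stood at 141, 168 and 179 CPM in BLM-treated rats, against 328, 373 and 334 CPM in control rats (log2 fold change −1.08). Lpl, lipoprotein lipase, stood at 834, 921 and 645 CPM in BLM-treated rats, against 1647, 1713 and 1606 CPM in control rats, with no overlap (log2 fold change −1.05, standard error 0.15, adjusted p = 0.00192, named after its values were seen). Lipa, the lysosomal acid lipase, fell by 0.67 and did not pass without 4 of the rats taken singly. On the higher side, Fabp4 stood at 1120, 1008 and 798 CPM in BLM-treated rats, against 416, 310 and 358 CPM in control rats (log2 fold change 1.43, standard error 0.16). Olr1, a receptor for oxidized lipoprotein, stood at 1910, 1684 and 1543 CPM in BLM-treated rats, against 749, 480 and 743 CPM in control rats (log2 fold change 1.38). Transcripts of lipid uptake and storage therefore lay on both sides.

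**Figure D3:**
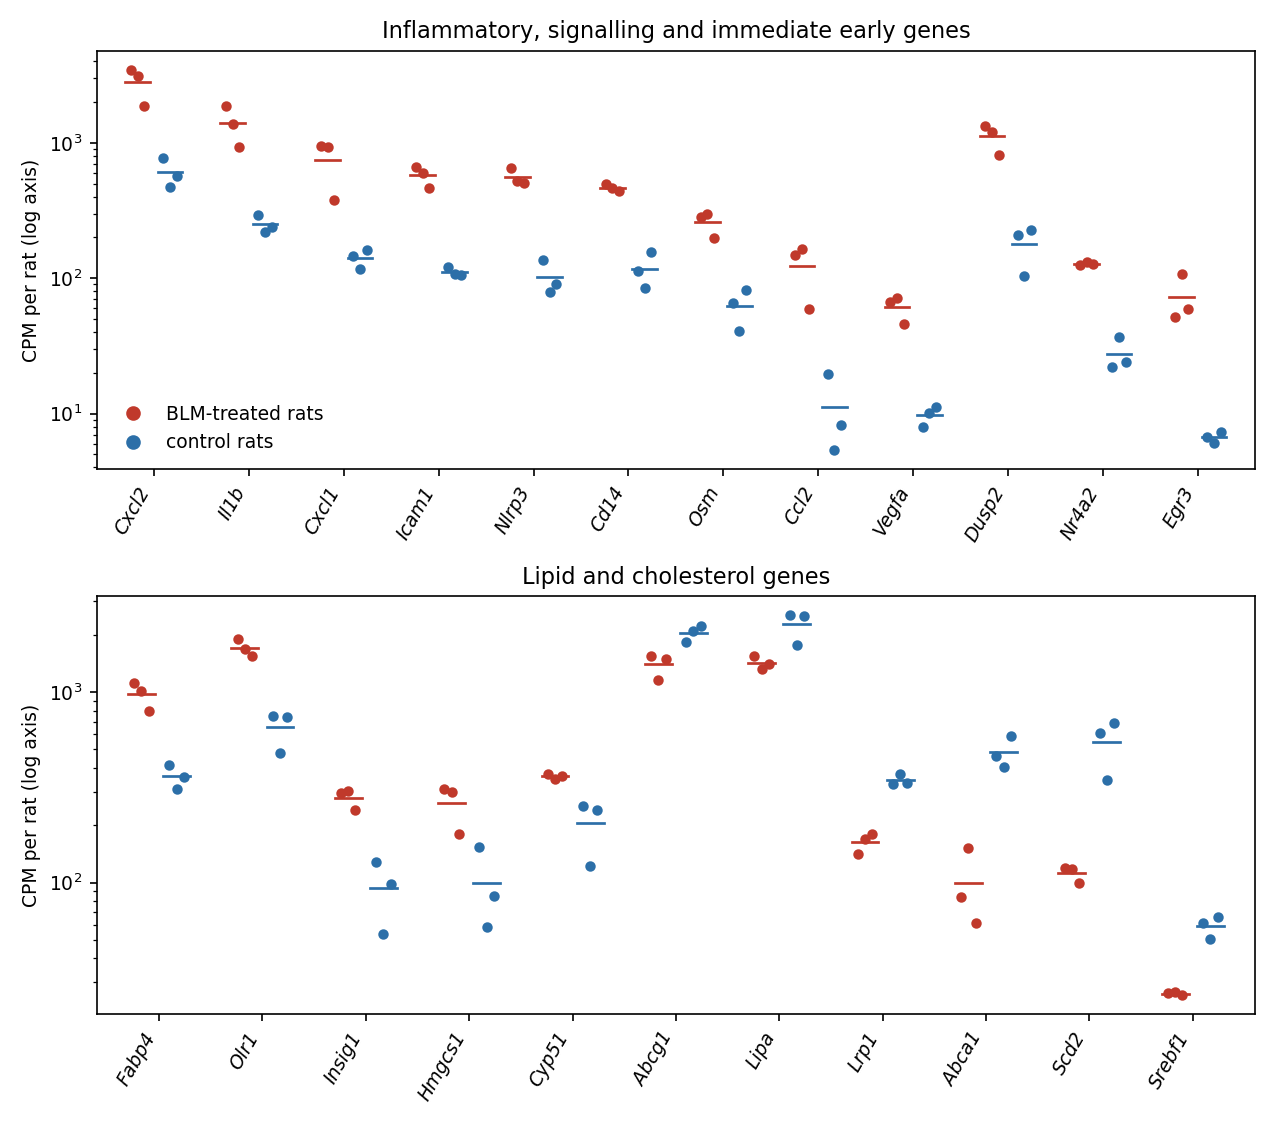
CPM (log axis) in alveolar macrophages of 12 inflammatory, signalling and immediate early genes (top) and 11 lipid and cholesterol genes (bottom), chosen after their values were seen. Each point is 1 rat (3 BLM-treated, red, and 3 control, blue) and each line the group mean: the 12 upper genes are higher in all BLM-treated rats, and of the lower 11 the genes from Fabp4 to Cyp51 are higher and those from Abcg1 to Srebf1 lower.

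Identity genes of alveolar macrophages moved in both directions. Of 25 tested members, 6 were higher, 5 were lower and 14 did not pass, with a median log2 fold change of −0.12. Over all tested genes 7.96% were higher and 5.06% lower. Cebpa, a transcription factor of these cells, stood at 525, 450 and 525 CPM in BLM-treated rats, against 279, 193 and 296 CPM in control rats (log2 fold change 0.96). The inhibitory receptor Cd200r1 and Chi3l1, a chitinase-like protein, rose by 0.98 and 1.85, and Chi3l1 did not pass without cells holding genes of other lung cells (1.16). The zinc transporter gene Slc39a2 and Cidec, a protein of lipid droplets, both named after their values were seen, fell by 0.93 and 1.73. The abundant lysozyme gene Lyz2 stood at 32982, 31783 and 22582 CPM in BLM-treated rats, against 55355, 46292 and 56040 CPM in control rats (log2 fold change −0.85, adjusted p = 0.00932, and −0.92 with no call without BLM-treated rat 2). Of 41 lysosomal genes 4 were higher and 1, Lyz2, was lower (median 0.08), with the protease Ctsk rising by 2.77 and Ctsl by 1.47.

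Genes known from macrophages of scars were called higher more often than the 7.96% over all tested genes. The lists were chosen with earlier results of these data known, so this is a description. They also share members, and Fn1 counts in the scar, monocyte and matrix lists. Of 32 tested members of the scar list, 14 were higher and 0 lower (median 0.70), including Trem2, Apoe and Ctsk. Fn1, fibronectin, stood at 608, 715 and 843 CPM in BLM-treated rats, against 117, 149 and 66.6 CPM in control rats (log2 fold change 2.73, standard error 0.27, adjusted p = 0.000328). Vegfa, the endothelial growth factor, stood at 66.1, 70.8 and 46.2 CPM in BLM-treated rats, against 7.97, 10.1 and 11.2 CPM in control rats (log2 fold change 2.63). Spp1 itself, which the limits cap, stood at 19.6, 32.3 and 11.9 CPM in BLM-treated rats and at 4.98, 3.36 and 2.62 CPM in control rats. Lgals3, galectin-3, did not differ by the test, at 6880, 7610 and 5429 CPM in BLM-treated rats and 6915, 5484 and 7823 CPM in control rats (log2 fold change −0.02, standard error 0.17).

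Among genes known from macrophages that derive from monocytes, 7 of 17 were higher and 2 lower (median 0.91). The background over all tested genes was 7.96% higher and 5.06% lower. Cd14, the coreceptor for endotoxin, stood at 497, 462 and 440 CPM in BLM-treated rats, against 113, 83.9 and 157 CPM in control rats (log2 fold change 1.96). The members that fell were the calcium-binding S100a6 (log2 fold change −0.84) and Lyz2. Of 25 genes of phagocytosis and scavenging 8 were higher and 1 lower (median 0.83), among them the inhibitory Fc receptor gene Fcgr2b, at 277, 206 and 301 CPM in BLM-treated rats and 52.3, 30.9 and 61.2 CPM in control rats (log2 fold change 2.38), and the sialoadhesin gene Siglec1 (log2 fold change 1.23, and 0.78 with no call without cells holding Apoe, Trem2 or Clec10a).

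Many inflammatory transcripts were higher. Of 33 tested genes of cytokines, chemokines and NF-kB, 16 were higher, 4 were lower and 13 did not pass (median 0.71). Beside them stand 7.96% higher and 5.06% lower over all tested genes. Il1b, interleukin-1 beta, stood at 1870, 1385 and 936 CPM in BLM-treated rats, against 295, 220 and 239 CPM in control rats (log2 fold change 2.47, standard error 0.24, adjusted p = 0.000316). Nlrp3, the sensor of the inflammasome that matures this cytokine, stood at 647, 522 and 505 CPM in BLM-treated rats, against 136, 79.2 and 91.1 CPM in control rats (log2 fold change 2.44, standard error 0.21). The neutrophil chemokine genes Cxcl2 and Cxcl1 rose by 2.22 and 2.39, with BLM-treated rat 3 the lowest of the treated rats for both.

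Icam1, an adhesion molecule under NF-kB, stood at 667, 598 and 460 CPM in BLM-treated rats, against 121, 108 and 106 CPM in control rats (log2 fold change 2.36, standard error 0.16, adjusted p = 4.16e-05). Ccl7, another chemokine for monocytes, held 49, 203 and 38 UMIs in BLM-treated rats, against 3, 0 and 2 UMIs in control rats, too few for a fold change to be read. The members that fell, all named after their values were seen except Alox15, were the leukotriene genes Alox5 and Alox5ap (log2 fold changes −0.62 and −0.65) and the chemokine gene Ccl9 (−0.63). The most abundant chemokine, Ccl6, did not pass, at 11912, 10687 and 7852 CPM in BLM-treated rats and 11180, 10251 and 15954 CPM in control rats (log2 fold change −0.30, standard error 0.20).

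Only 4 immediate early and stress genes could be tested, and all 4 were higher (Nr4a2, Egr3, Dusp2 and Fosl1, median 2.46). Dusp2, a phosphatase that ends signalling by MAP kinases, stood at 1321, 1209 and 811 CPM in BLM-treated rats, against 207, 104 and 225 CPM in control rats (log2 fold change 2.62, standard error 0.29). In lymphocytes of the same lungs Dusp2 and Egr3 were higher as well, while Nr4a2 and Fosl1 overlapped between groups. Dusp2 stood there at 632, 449 and 499 CPM (unscaled) in BLM-treated rats and 250, 155 and 308 CPM in control rats. Most members of that list were not analysed here, and their part in the inflammatory changes was not tested. Of 35 interferon response genes 5 were higher and 2 lower (median 0.11), beside 7.96% and 5.06% over all tested genes. Its examples were small in level, such as Ifi44 at 65.1, 60.8 and 54.6 CPM in BLM-treated rats and 36.6, 33.6 and 33.7 CPM in control rats (log2 fold change 0.79). Of 17 genes of MHC class I presentation 0 were called in either direction by edgeR (2 at an unadjusted p under 0.05, and 0 by DESeq2), and of 8 genes of class II presentation 1 was, Cd40, with 21, 27 and 12 UMIs in BLM-treated rats and 1, 1 and 3 in control rats. Cd74, the class II invariant chain, stood at 276, 202 and 493 CPM in BLM-treated rats and 60, 244 and 113 CPM in control rats, which overlapped. The RT1 genes are near-identical copies, and how reads shared among them were counted is not given in the sources used here.

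Genes by which macrophages signal to other cells of the lung were higher in part. Of 22 tested growth factor and TGF-beta genes 8 were higher and 0 lower (median 0.90), beside 7.96% and 5.06% over all tested genes. Osm, oncostatin M, stood at 282, 295 and 198 CPM in BLM-treated rats, against 65.0, 41.0 and 82.3 CPM in control rats (log2 fold change 2.00, standard error 0.24). Smad7, the inhibitor of TGF-beta signalling, rose by 1.81, and the low genes Csf1 and Pdgfb rose by 1.88 and 1.65, the first with no call without BLM-treated rat 2 or control rat 3 and the second with none without BLM-treated rat 2, control rat 1 or control rat 3. Igf1 was the most abundant growth factor and did not pass, at 1855, 1653 and 1558 CPM in BLM-treated rats and 1329, 1543 and 1475 CPM in control rats (log2 fold change 0.22, standard error 0.12). Of 20 matrix and protease genes 12 were higher and 2 lower (median 1.51), and the 2 lower were the transglutaminase Tgm1 (log2 fold change −1.90) and the sheddase Adam17 (−0.61). The matrix list shares Sparc and other genes with fibroblasts, whose summed level is given above, and Sparc did not pass after each cell had been thinned to 1000 UMIs.

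Most metabolic genes did not pass. In oxidative phosphorylation 0 of 54 genes were higher and 5 lower (median −0.20), beside 7.96% and 5.06% over all tested genes, with Uqcr10 at 127, 108 and 98.3 CPM in BLM-treated rats and 195, 158 and 202 CPM in control rats (log2 fold change −0.75, with no call without BLM-treated rat 2). In glycolysis 3 of 18 genes were higher and 1 lower (median 0.20), led by the lactate transporter gene Slc16a1 (log2 fold change 1.66). Of 34 antioxidant and iron genes 8 were higher and 2 lower (median 0.12). Gclc, which limits glutathione synthesis, stood at 112, 122 and 114 CPM in BLM-treated rats, against 57.6, 47.7 and 60.9 CPM in control rats (log2 fold change 1.04, and 0.67 with no call without cells holding genes of other lung cells), and its regulator Nfe2l2 rose by 0.98. Slc11a1, the iron transporter of the phagosome, fell by 0.64 and did not pass without cells holding Apoe, Trem2 or Clec10a (−0.55).

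Among 33 cell cycle genes that the limits do not use, 3 were higher and 2 lower (median −0.23). These counts are near the 7.96% and 5.06% over all tested genes. Pcna, the sliding clamp of replication and repair, stood at 436, 484 and 431 CPM in BLM-treated rats, against 211, 183 and 186 CPM in control rats (log2 fold change 1.22, standard error 0.12, adjusted p = 0.000328). Cdkn1a, the p21 inhibitor, stood at 95.1, 140 and 50.4 CPM in BLM-treated rats, against 32.1, 23.5 and 24.0 CPM in control rats (log2 fold change 1.84). Cdkn2b, another inhibitor of the cycle, was low and fell by 2.46, and the cyclin gene Ccnd1 fell by 0.89, with no call without BLM-treated rat 2, BLM-treated rat 3, control rat 1 or control rat 2.

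**Figure D4:**
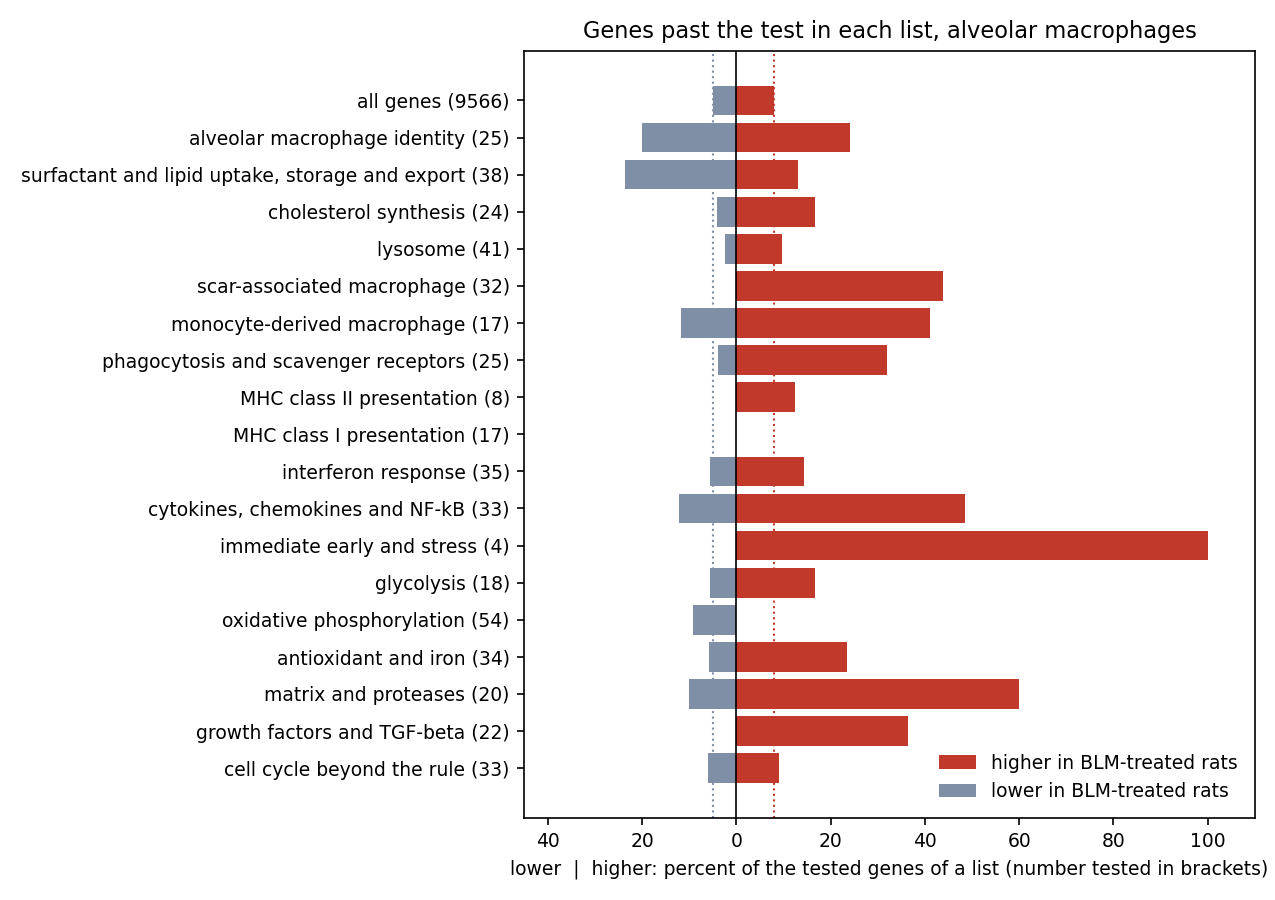
Percentage of the tested genes of each list that passed the test as higher (right, red) or lower (left) in alveolar macrophages of BLM-treated rats, with the number tested in brackets. Dotted lines mark the background of 7.96% higher and 5.06% lower over all 9566 genes, and the scar-associated list stands at 14 of 32 higher and 0 lower.

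Transcripts of other lung cells differed between the groups as well. Of 9 measured alveolar type 2 genes 0 were higher and 2 lower, and their summed level was 175, 206 and 420 CPM in BLM-treated rats and 827, 693 and 641 CPM in control rats. Sftpc, the defining transcript of type 2 cells, stood at 6.20, 12.1 and 202 CPM in BLM-treated rats and 454, 341 and 355 CPM in control rats and did not pass, and a single cell held 536 of the 578 Sftpc UMIs of BLM-treated rat 3, 473 of the 1824 of control rat 1 and 545 of the 2435 of control rat 3. Of the endothelial list 1 of 8 tested genes was higher, the receptor gene Tie1, at 44.4, 47.9 and 47.2 CPM in BLM-treated rats and 4.73, 5.37 and 4.08 CPM in control rats (log2 fold change 3.36), while its other 7 did not pass. Neutrophil genes gave 2 higher and 1 lower of 7, mesothelial genes 2 higher of 4, and genes of T and NK cells, B cells, club cells and erythroid cells gave 0 calls of 3, 1, 4 and 2 by edgeR (1, 0, 2 and 2 at an unadjusted p under 0.05, and 0 of each by DESeq2). Of the neutrophil calls, S100a9 changed sign in a pair of alternatives and is read in neither direction, and Camp, the lower one, did not pass without cells holding genes of other lung cells. The mesothelial genes Msln and Upk1b both lost their call without BLM-treated rat 2 and without control rat 3, Msln also with DESeq2, without BLM-treated rat 3 and without control rat 1, and Upk1b also with thinned cells. Of these lists, the fibroblast, dendritic, endothelial, mesothelial and interstitial macrophage lists had a higher summed level in every BLM-treated rat than in every control rat, and Clec10a is a member of the dendritic list and Apoe of the interstitial one.

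To see how many cells carried a transcript at equal depth, each cell was thinned to 1000 UMIs, which left out 22, 66 and 17 cells of BLM-treated rats 1 to 3 and 58, 117 and 66 of control rats 1 to 3. Lymphocytes of the same lungs (1792 cells, median 822 UMIs in BLM-treated rats and 808 in control rats, against 4384 and 3264.5 in the macrophages) served as cells that should lack macrophage transcripts, of which thinning kept 113, 170 and 74 in BLM-treated rats and 134, 47 and 70 in control rats. Clec10a was then found in 20.1%, 27.0% and 29.1% of the macrophages of BLM-treated rats and 1.41%, 0.536% and 0.738% of those of control rats, and in a mean of 0.843% of the lymphocytes of BLM-treated rats. Without thinning it was found in 45.7%, 48.1% and 49.1% in BLM-treated rats and 2.85%, 1.33% and 2.78% in control rats. Trem2 was found in 14.7%, 19.3% and 17.9% of the thinned macrophages of BLM-treated rats, 2.02%, 0.536% and 1.35% of those of control rats, and 0.196% of lymphocytes of BLM-treated rats (51.1%, 44.3% and 46.7%, against 5.44%, 1.77% and 4.85%, without thinning). Cd14, Fn1 and Il1b likewise lay above the lymphocytes of every BLM-treated rat, with means of 30.7%, 25.0% and 31.2% of thinned macrophages of BLM-treated rats and 9.02%, 5.29% and 9.17% of those of control rats. The lymphocytes of BLM-treated rats had means of 2.63%, 4.49% and 5.33%, and the unthinned macrophages 66.0%, 36.6% and 42.6% in BLM-treated rats and 23.5%, 8.81% and 16.4% in control rats.

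For most genes of few cells the shares were close to or below those of lymphocytes. The mean share of Apoe lay above that of lymphocytes, and both were higher in BLM-treated than in control rats. Mgp was found in 3.97% of thinned macrophages and 6.87% of thinned lymphocytes of BLM-treated rats (means over 3 rats), Col1a1 in 2.72% and 2.92%, Col3a1 in 3.36% and 6.25% and Igfbp5 in 1.65% and 1.53%. Shares at or below those of lymphocytes are not read as the share of macrophages that express a gene, and that of Igfbp5 lay just above. The UMIs of these genes lay in a few cells with many. Apoe was found in 4.78% of thinned macrophages and 3.45% of thinned lymphocytes of BLM-treated rats, against 0.191% and 0.249% in control rats. In lymphocytes Apoe stood at 38.1, 86.7 and 110 CPM (unscaled) in BLM-treated rats and 6.58, 0 and 0 CPM in control rats. The share of Apoe is thus not read as the share of macrophages that express it. Without thinning the macrophages of BLM-treated and control rats had means of 10.3% and 1.48% for Mgp, 5.59% and 1.70% for Col1a1, 9.47% and 2.85% for Col3a1, 3.28% and 0.903% for Igfbp5, and 8.72% and 0.474% for Apoe. For genes that fell, Abca1 was found in 5.06%, 8.77% and 3.11% of the thinned macrophages of BLM-treated rats and 28.6%, 28.0% and 34.9% of those of control rats, with 1.82% and 0.476% of lymphocytes of BLM-treated and control rats (14.0% and 49.4% of macrophages without thinning, means). Fabp4 was found in a mean of 42.0% of thinned macrophages of BLM-treated rats and 19.1% of those of control rats (65.6% and 33.3% without thinning), with 1.33% of lymphocytes of BLM-treated rats. The groups did not overlap for Clec10a, Trem2, Abca1, Fabp4, Cd14, Fn1, Il1b, Mgp, Igfbp5 and Apoe (two-sided exact permutation tests, p = 0.1 each, the smallest p possible), whereas they overlapped for Col1a1 and Col3a1 (p = 0.2 each).

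**Figure D5:**
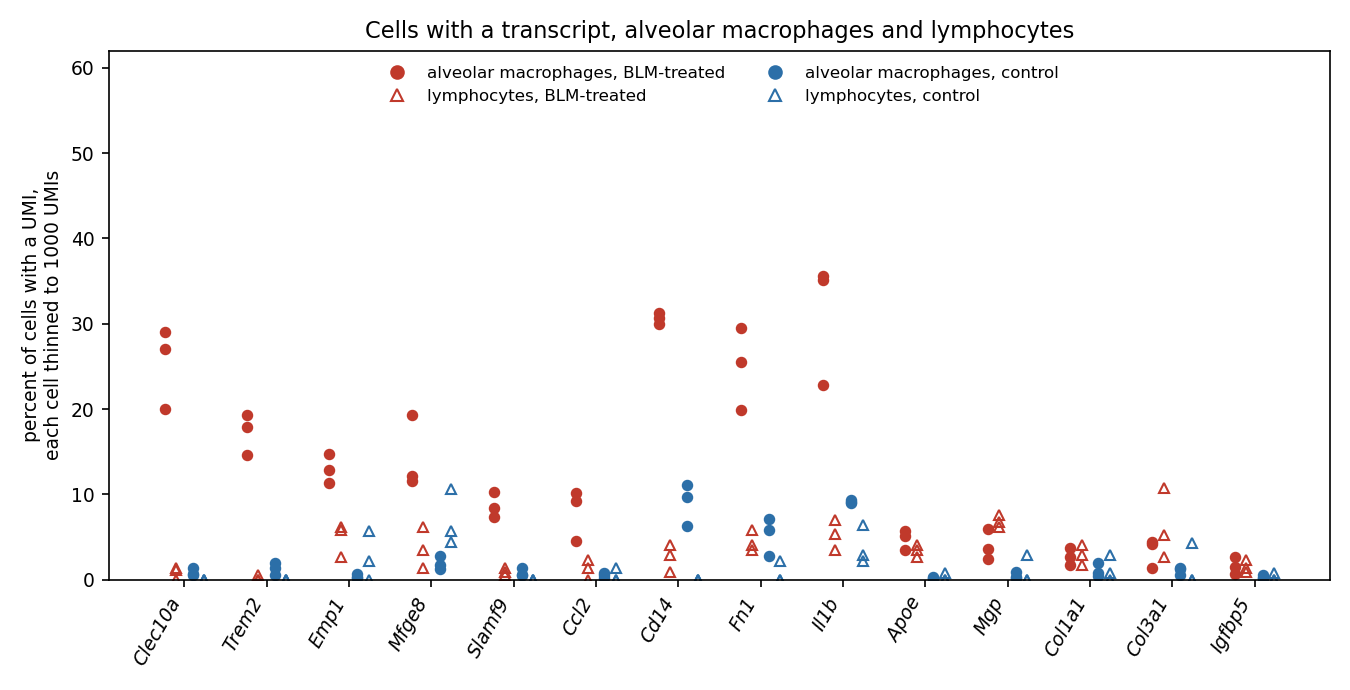
Percentage of cells with at least 1 UMI of a gene after each cell was thinned to 1000 UMIs, in alveolar macrophages (filled circles) and lymphocytes (open triangles) of each rat, BLM-treated in red and control in blue. Clec10a, Trem2, Cd14, Fn1 and Il1b in macrophages of BLM-treated rats lie above the other groups, and Mgp, Col1a1, Col3a1 and Igfbp5 lie among the lymphocytes.

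Transcripts found together in a cell were counted in a separate draw of 1000 UMIs per macrophage. In these cells of BLM-treated rats, Trem2 was found in 19.6%, 27.2% and 24.9% of cells with Clec10a and 15.1%, 13.8% and 17.7% of cells without. Icam1 followed Il1b more closely, in 63.1%, 50.3% and 53.7% of cells with Il1b and 21.5%, 25.8% and 17.2% of cells without. Abca1 was found in 41.2%, 36.5% and 31.0% of the 17, 63 and 29 thinned cells with Apoe, against 4.14%, 7.49% and 4.72% of those without. The cells share a library and a depth of 1000 UMIs, and these shares are descriptions over cells of 3 rats.

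Among the cells with no UMI of a fibroblast, mural, type 2 or club cell gene, a limit chosen after the data were seen, 360 genes were higher and 254 lower of 7038 tested, with 327 and 213 shared with the 761 and 484. That choice kept 22.0%, 25.4% and 32.3% of the macrophages of BLM-treated rats 1 to 3. It kept 33.0%, 5.17% and 25.4% of those of control rats 1 to 3. The dendritic and interstitial macrophage lists, which hold Clec10a and Apoe, were not part of it, so transcripts from those cells were not addressed. Apoe, at a log2 fold change of 7.45, Trem2, at 3.88, and Clec10a, at 5.00, remained past the test.

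The response to BLM was set against that of macrophages with complement transcripts, defined by at least 2 of C1qa, C1qb and C1qc with the same limits on Spp1 and cycling genes (703 cells, 541 of BLM-treated and 162 of control rats). The difference of the BLM change between the cell types passed the test for 497 of 8644 genes (5.75%), 243 (2.81%) with a higher log2 change in alveolar macrophages and 254 (2.94%) with a lower one (edgeR's quasi-likelihood test of the interaction, with the rat as a block). Without control rat 1 there were 178 and 135. Several genes that rose in alveolar macrophages stood higher in C1q macrophages of control rats than in alveolar macrophages of BLM-treated rats, Apoe and Clec10a among them. Apoe stood at 4760, 6963 and 6353 CPM in C1q macrophages of BLM-treated rats and 1714, 1856 and 1627 CPM in those of control rats, and its BLM change was larger in alveolar macrophages by 5.13 on the log2 scale.

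Clec10a stood at 1105, 2025 and 1522 CPM in C1q macrophages of BLM-treated rats and 968, 998 and 1100 CPM in those of control rats (difference of the changes 4.40, standard error 0.24). For Trem2 the levels were 344, 272 and 406 CPM in BLM-treated rats and 178, 245 and 269 CPM in control rats (difference 2.80, standard error 0.33). Il1b was not raised in C1q macrophages, at 2438, 2508 and 2598 CPM in BLM-treated rats and 3598, 1559 and 5584 CPM in control rats (difference 2.68, standard error 0.30, adjusted p = 5.13e-08). Abca1 moved in opposite directions in the 2 cell types. It stood at 808, 565 and 431 CPM in C1q macrophages of BLM-treated rats and 161, 263 and 375 CPM in those of control rats, so that its change in alveolar macrophages was lower by 3.68 (log2 difference −3.68, standard error 0.30).

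For Fn1 no difference of the changes was found, since it rose by 2.79 in C1q macrophages (difference −0.24, standard error 0.55). Some C1q macrophages held at least 3 of the 6 alveolar markers, 25.6%, 16.3% and 17.9% in BLM-treated rats and 9.68%, 9.09% and 12.5% in control rats. Without these cells, left out after the data were seen, 130 and 104 genes passed. The differences of Apoe, Clec10a, Trem2, Il1b and Abca1 passed again, at 4.78, 4.36, 3.08, 2.44 and −3.41, and those of Fcrla, Alpk3 and Vopp1 did not.

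The promoters of genes that moved together were searched for 7 short motifs, 250 bases before to 50 after the start in RefSeq's GRCr8 annotation, on both strands. Promoters were found for 574 of the 761 higher genes, 325 of the 484 lower genes and 7071 of all tested genes. The AP-1 motif TGANTCA stood in 5.58% of promoters of higher genes, 7.69% of those of lower genes and 4.64% of those of all tested genes, and in 7.33% of all 27457 promoters. The PU.1 core GAGGAA stood in 29.4%, 30.5%, 26.6% and 27.5%, and the MAF core TGCTGA in 16.4%, 16.9%, 15% and 18.6%. The C/EBP motif TTGCNNAA stood in 9.58% of promoters of higher genes, 11.1% of those of lower genes and 8.40% of those of all tested genes. For the E-box CACGTG these shares were 8.19%, 9.54% and 9.8%, so that both groups lay below all tested genes. For the interferon-stimulated response element (ISRE) they were 3.14%, 3.39% and 2.86%. The DR1 motif of nuclear receptors stood in 0 promoters of higher and of lower genes. For each of the other 6 motifs the share was at least as high among the lower genes as among the higher ones. The promoters of Trem2 and Emp1, which rose, and of Abca1, which fell, are printed as examples, 5′ to 3′ on the strand of the gene with motif matches in capitals. The Trem2 window is chr9:20151730-20152029 on the minus strand, with the capitals in order a PU.1 core (as its complement), an AP-1 motif and a C/EBP motif.
Trem2: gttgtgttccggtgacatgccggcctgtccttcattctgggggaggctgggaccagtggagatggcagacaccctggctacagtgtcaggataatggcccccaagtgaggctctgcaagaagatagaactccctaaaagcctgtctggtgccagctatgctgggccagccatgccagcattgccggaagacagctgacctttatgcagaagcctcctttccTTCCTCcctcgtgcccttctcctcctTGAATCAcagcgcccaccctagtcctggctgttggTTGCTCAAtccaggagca
The Emp1 window is chr4:169943980-169944279 on the plus strand, with 2 AP-1 motifs.
Emp1: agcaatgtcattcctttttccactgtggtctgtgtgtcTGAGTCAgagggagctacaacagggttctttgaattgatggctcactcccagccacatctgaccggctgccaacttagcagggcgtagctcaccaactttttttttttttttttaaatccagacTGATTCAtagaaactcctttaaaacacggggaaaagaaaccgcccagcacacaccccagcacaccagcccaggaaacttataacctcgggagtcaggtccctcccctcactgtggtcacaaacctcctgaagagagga
The Abca1 window is chr5:72596424-72596723 on the minus strand, with an E-box and a MAF core.
Abca1: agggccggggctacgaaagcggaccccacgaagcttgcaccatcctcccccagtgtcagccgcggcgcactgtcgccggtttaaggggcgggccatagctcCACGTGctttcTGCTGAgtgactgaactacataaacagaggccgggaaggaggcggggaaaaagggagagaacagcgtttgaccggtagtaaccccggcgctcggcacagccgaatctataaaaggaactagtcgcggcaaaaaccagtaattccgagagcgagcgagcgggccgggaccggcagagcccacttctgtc
A match is a description of letters in these windows and no evidence of binding.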

How the data were processed

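Cells from small pieces of lung of 3 BLM-treated and 3 control rats were measured by single-cell RNA sequencing (BD Rhapsody). The authors deposited whole UMI counts per gene and cell, not normalized (25547 cells, 16383 genes). Processing notes of the submitters list mm9 as the genome build. Aligner, counter and cell filter are not given in the sources used. The header lacks a name for the cell column, so a gene's values lie 1 field right of its name.

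UMIs of alveolar macrophages were summed per rat and tested with edgeR 4.0.16 (filterByExpr, TMM, quasi-likelihood test, Benjamini-Hochberg adjustment over all 9566 genes tested, threshold 0.05), and CPM are given after TMM scaling. The differences between alveolar and C1q macrophages were tested as an interaction with the rat as a block. Shares of cells were tested with two-sided exact permutation tests over rats, with cells thinned to 1000 UMIs (seed 7). Lymphocytes were cells with at least 2 genes of the T and NK list or 2 of the B cell list, none of the 6 alveolar markers and no C1q UMI. The alternatives tried were leaving out each rat, DESeq2 1.42.0, scaling by RLE, testing without the filter, a block for the replicate number, other limits on members, and thinning. In simulated data for this comparison over 9566 genes, 12.4%, 77.1% and 100% of genes changed by 0.5, 1 and 2 on the log2 scale were found, and 8.47% of the calls were false. The changed genes numbered 201, 201 and 198 over all draws and left out those of lowest level. The share of false calls depends on how many genes change, so 8.47% is not the share among the 1245 calls in the data.

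Named are the genes of the limits, the 15 genes of largest change in each direction among those past the threshold with no overlap between groups and a mean of at least 50 CPM in the higher group, and, from each list, up to 6 genes by adjusted p and 3 by level; other genes are said to be named after their values were seen, and the markers Marco, Car4, Itgax, Cd163, Ms4a7 and Cx3cr1 were added. Members and lists were chosen with earlier results of these data known. Ribosomal proteins, most immediate early genes, Pecam1, Ccr2 and Dcn were not analysed here, and some genes that the rule names are not reported here. Replicates are separate rats by their labels. R 4.3.3 and Python 3.11.15 were used.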

Additional observations from a re-analysis of the deposited data

Results flagged for a closer look

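The change with BLM differed between alveolar and C1q macrophages, by a test of the difference itself, for 243 genes with a higher and 254 with a lower log2 change in alveolar macrophages. Among the genes named by size, the log2 change in alveolar macrophages minus that in C1q macrophages was 5.13 for Apoe, 3.45 for Mgp, 4.40 for Clec10a, 3.03 for Emp1, 2.80 for Trem2, 2.82 for Egr3, 3.64 for Ccl2, 1.70 for Hopx, 3.32 for Nr4a3, 3.07 for Slamf9 and 1.70 for Mfge8. It was −4.47 for Fcrla, −3.99 for Alpk3, −2.89 for Vopp1, −2.28 for Scd2 and −3.68 for Abca1. Fcrla, Alpk3 and Vopp1 were near the floor in C1q macrophages, at 35.0 CPM or less in every rat, and their differences did not pass when C1q macrophages with at least 3 alveolar markers were left out (adjusted p = 0.11, 0.194 and 0.124, edgeR).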

How the results depend on the processing

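Over all alternatives the share of alveolar macrophages stayed lower in BLM-treated lungs (−22.0 to −14.0 percentage points, and −19.7 to −14.5 with 1 rat left out). The counts of 761 higher and 484 lower genes were 695 and 467 with DESeq2, 737 and 489 with RLE scaling, and 869 and 477 without the filter on low counts. With each cell thinned to 1000 UMIs they were 403 and 312 of 6951 tested, with fewer genes and UMIs by construction. Without cells holding Apoe, Trem2 or Clec10a, a limit set by genes that changed, they were 455 and 277. That limit kept 28.7% to 32.9% of the macrophages of BLM-treated rats and 92.5% to 96.8% of those of control rats. Without cells holding genes of other lung cells they were 360 and 254. Both limits were chosen after the data were seen, and the cause of the lower counts was not tested. Leaving out 1 rat gave 408 to 851 higher and 222 to 545 lower genes. With the replicate number as a replicate block there were 587 and 331. The correlations of same-numbered rats, over deviations from the group means, were 0.0764, 0.0089 and −0.1386, and not every rat correlated best with its own number. With 3 rats per group these values cannot tell whether rats of the same number were processed together. The interaction gave 243 and 254 genes, 172 to 261 and 135 to 320 with 1 rat left out, and 130 and 104 with C1q macrophages of fewer than 3 alveolar markers. S100a9, with a log2 fold change of 1.01, had −0.10 with thinned cells and −0.19 without cells holding genes of other lung cells, and it is read in neither direction. Of the 120 named genes with a call, 117 kept it with DESeq2, 118 with RLE scaling and 87 of 119 without BLM-treated rat 2. Depth limits low genes: 3 UMIs stand for up to 2.01 CPM in control rat 2.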
